A study of Homo sapiens with 24 samples.

Results

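AL080232, AK055214, SLC1A1, TBC1D9 and C1QTNF5 are 5 of the 30142 genes on the array, measured by 7 of its 41000 probes, and were chosen by their log2 ratios in DB and K422, where their RNA was among the most increased once FOXP1 had been silenced. The name of each gene is the one in the array's own annotation, and every probe that carries it is described. Values of the 5 genes in DB and K422 are therefore descriptions without a test. The HBL-1 and OCI-Ly3 arrays were not used in the choice by ratio and were tested. That choice was made with earlier results of these data known, so the tests are not fully independent of it. AL080232 and AK055214 are names of cDNA records without a gene symbol, and the other 3 are protein-coding genes.

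The study asked which genes respond to loss of the transcription factor FOXP1 in diffuse large B-cell lymphoma (DLBCL), a tumour of mature B cells with a germinal center B-cell-like (GCB) and an activated B-cell-like (ABC) subtype. DB and K422 represent the GCB subtype, and OCI-Ly3 and HBL-1 the ABC subtype. Each line was nucleofected with 1 µM of siFOXP1_308 (siFOXP1 #1) or siFOXP1_309 (siFOXP1 #2) and, as the control, with a non-targeting Stealth Low GC siRNA (siCtrl), and RNA was taken after 48 h. The 3 replicates of each line and siRNA were independent experiments, which gave 6 arrays per line and 24 in all, each with siFOXP1 RNA in Cy3 and siCtrl RNA in Cy5.

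The dyes were never exchanged, so what a probe owes to its dye and what it owes to silencing cannot be told apart. A line stands for itself here, since each subtype is represented by 2 lines. Whole cultures were measured, so a change in the share of cells that carry a transcript and a change in its amount per cell cannot be told apart. The B-cell markers PAX5, CD79A and CD79B were well above background by the scanner software's flag (called detected from here on) in siCtrl RNA on all 6 arrays of every line. Of 5 GCB markers 5 were in DB and K422 and 2 in HBL-1 and OCI-Ly3, where MME (CD10) was not on any array. Of 6 ABC markers 6 were in HBL-1 and OCI-Ly3, 5 in DB and 4 in K422, with IRF4 on no array of DB or K422. DB shared its scan session with OCI-Ly3, and HBL-1 with K422. FOXP1 itself was lower on 6 of 6 arrays in each line, and its mean log2 ratio of siFOXP1 over siCtrl was -2.00 ± 0.79 in DB, -1.34 ± 0.47 in K422, -1.96 ± 0.54 in OCI-Ly3 and -1.74 ± 0.55 in HBL-1 (SD, n = 6 arrays). It was lower with siFOXP1 #2 than with #1 in 12 of 12 arrays paired by replicate number.

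FOXP1 is a forkhead-box transcription factor that the study describes as both repressing and activating genes, and forkhead factors bind DNA at variants of the sequence TGTTTAC. SLC1A1 encodes EAAT3 (EAAC1), a plasma membrane transporter for glutamate, aspartate and cysteine that is best known from neurons and kidney. TBC1D9 encodes a protein with the TBC domain shared by GTPase-activating proteins of Rab GTPases, the switches of membrane traffic. C1QTNF5 encodes a secreted protein of the C1q and tumour necrosis factor-related family with a collagen-like stretch and a globular C1q domain, known from the retinal pigment epithelium. LPP, the gene at the locus of both cDNA records, encodes a LIM-domain protein of cell adhesions related to zyxin, and its gene is a known partner of BCL6 in lymphoma translocations.

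The probes place both cDNA records on the plus strand of chromosome 3 in hg18, on either side of the array's LPP probes. AL080232 was read at chr3:189447610-189447668. AK055214 was read at chr3:190089346-190089405 and at chr3:190090512-190090571, and the second probe, the brighter of the pair, stood for the gene. The AL080232 probe lay 627.282 kb before the first LPP probe, and the first AK055214 probe lay 10.851 kb after the last LPP probe. In RefSeq annotation of GRCh38.p14, LPP spans 737.651 kb and holds FLJ42393. Since the AL080232 probe lies between those of FLJ42393 and LPP in hg18, it falls within the span of LPP, while the place of AK055214 relative to the end of LPP is not stated here. SLC1A1 was read on the plus strand of chromosome 9 at chr9:4575423-4575482 and, by the brighter probe, at chr9:4577002-4577061. TBC1D9 was read on the minus strand at chr4:141761991-141762050 and C1QTNF5 on the minus strand at chr11:118715105-118715164. RefSeq annotation of the files' build was not used here, so exons and introns under the probes are not stated.

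The array sequences are shown because they are what identifies the cDNA records and what separates the probes of 1 gene. They are given whole for AL080232 and for the first SLC1A1 probe, and otherwise as the first 30 bases of the 60-base probe, 5′ to 3′. No position in them is marked.
AL080232: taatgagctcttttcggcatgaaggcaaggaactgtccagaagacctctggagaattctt
AK055214 at 190089346: tatatcctactggatggtagcatattgcta
AK055214 at 190090512: atggctttgctctgagtttcaatctgatga
SLC1A1 at 4575423: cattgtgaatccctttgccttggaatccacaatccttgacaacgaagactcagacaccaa
SLC1A1 at 4577002: gaaatccaaaatagtcatgtttctgcagta
TBC1D9: tgtcacagagaatctgaaagtagcagcaaa
C1QTNF5: ctggaatattgtgaatgactagggaggtgg

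Both cDNA records had higher signal with siFOXP1 than with siCtrl on 12 of 12 arrays of the GCB-DLBCL lines, by log2 ratios of 1.61 to 2.39 on average. The log2 ratio of AL080232 in DB was 2.03, 1.40 and 2.36 with siFOXP1 #1 and 2.76, 2.41 and 2.13 with siFOXP1 #2. In K422 it was 1.88, 2.20 and 2.15 with siFOXP1 #1 and 2.23, 2.79 and 2.31 with siFOXP1 #2. The means of 2.18 ± 0.46 in DB and 2.26 ± 0.30 in K422 (SD, n = 6 arrays) are 4.53-fold and 4.79-fold. AL080232 was detected in both channels on all of these arrays, and the arrays of the 2 siRNAs overlapped in DB but not in K422, where #2 was the higher.

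AK055214 gave log2 ratios of 0.95, 1.35 and 1.87 with siFOXP1 #1 and 1.58, 2.04 and 1.90 with siFOXP1 #2 in DB. In K422 the ratios were 2.26, 2.38 and 2.24 with siFOXP1 #1 and 2.26, 2.57 and 2.61 with siFOXP1 #2. Its means were 1.61 ± 0.41 in DB and 2.39 ± 0.16 in K422 (SD, n = 6 arrays), which are 3.06-fold and 5.24-fold, and no K422 array was as low as any DB array. The dimmer AK055214 probe averaged 1.53 in DB and 2.05 in K422.

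SLC1A1 had the largest mean ratio of the 5 genes in K422 as the scanner software gives it, with a control signal near background. Its log2 ratio in K422 was 2.62, 2.78 and 2.69 with siFOXP1 #1 and 2.99, 3.45 and 2.59 with siFOXP1 #2, a mean of 2.86 ± 0.33 (SD, n = 6 arrays). The siFOXP1 channel was detected on 6 of 6 K422 arrays and the siCtrl channel on 2, so the ratio was measured on both sides on 2 arrays and no fold is given. In DB the values spread from -0.32 to 2.05 around a median of 0.65, and the probe was detected in 1 siFOXP1 and 0 siCtrl measurements, so no fold is given. The other SLC1A1 probe averaged 0.62 in K422, where neither of its channels was detected on any array, and so it has no measured size.

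TBC1D9 was at background in siCtrl RNA of K422 and above it after silencing. In K422 its log2 ratio was 3.47, 2.83 and 2.66 with siFOXP1 #1 and 2.25, 1.95 and 2.63 with siFOXP1 #2, a mean of 2.63 ± 0.52 (SD, n = 6 arrays). It was detected in the siFOXP1 channel on 6 of 6 arrays and in the siCtrl channel on 0, which makes TBC1D9 at least 1.75-fold higher, the siFOXP1 mean set against the lowest signal that counts as detected. This and the other bounds rest on the scanner software's own background correction. They are not strict, since an undetected signal can lie above that lowest signal. In OCI-Ly3 the lowest detected siCtrl signal was at most 4.55, while AL080232 at 4.59 (siFOXP1 #1, replicate 1) was not detected. In DB neither channel was detected on any array, and the ratio was listed at 0 on 5 of 6 arrays.

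C1QTNF5 was the only one of the 5 genes with a ratio above 0 on 24 of 24 arrays. In DB the lowest, median and highest log2 ratios were 1.09, 1.50 and 2.71, with a mean of 1.68 ± 0.65 (SD, n = 6 arrays). All 6 DB arrays detected it in the siFOXP1 channel and none in the siCtrl channel, so C1QTNF5 was at least 1.93-fold higher. In K422 the mean was 0.70 ± 0.41, between 0.12 and 1.26, and the bound was at least 1.28-fold. C1QTNF5 was thus a member through DB, while SLC1A1 and TBC1D9 were members through K422.

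**Figure D1:**
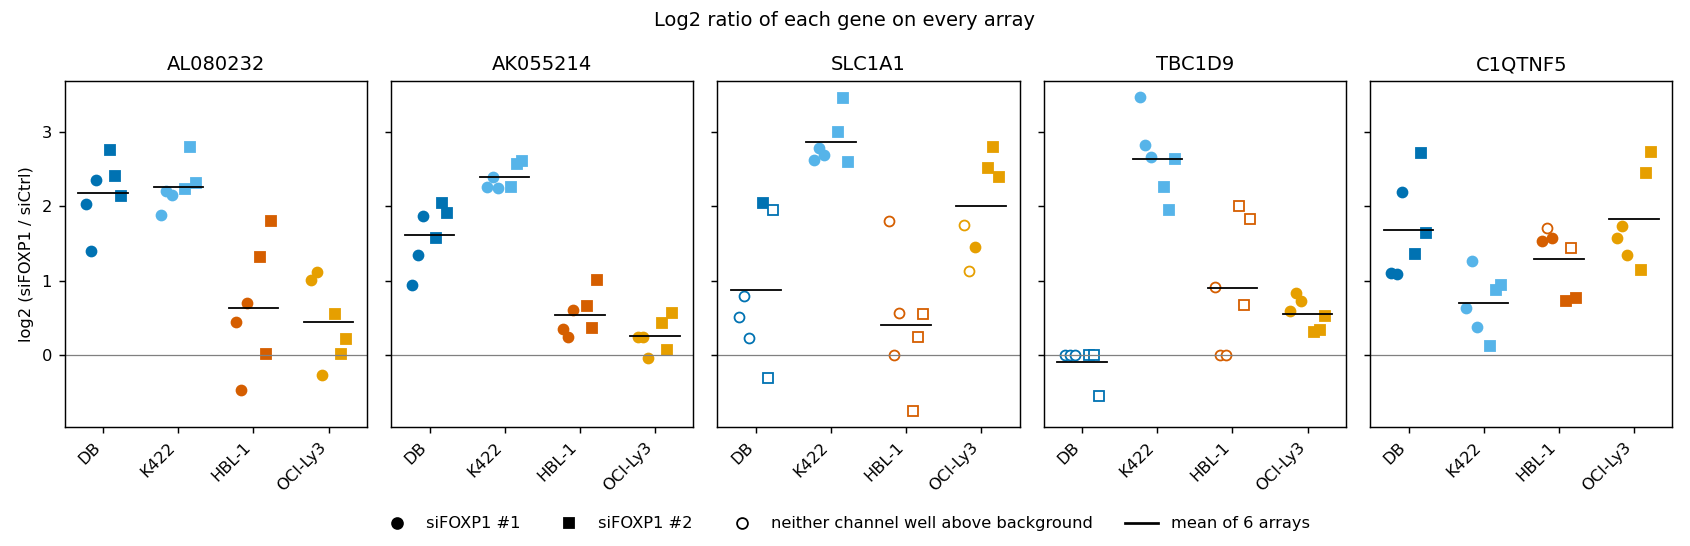
Log2 ratio of siFOXP1 over siCtrl for each of the 5 genes on each of the 24 arrays, by cell line and siRNA, with the mean of the 6 arrays of a line. AL080232 and AK055214 sit above 0 on all arrays of DB and K422, TBC1D9 sits at 0 on 5 of 6 DB arrays, and C1QTNF5 sits above 0 on all arrays.

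Among genes higher and detected in a channel on all 6 arrays, 1366 could be ranked in DB and 3103 in K422. AL080232, C1QTNF5 and AK055214 led the DB ranking, followed by THC2535753 at 1.59, BU726029 at 1.52, AK123506 at 1.43 and LPP at 1.37, all of which lie at the LPP locus, and by CLGN at 1.33. In K422, SLC1A1 and TBC1D9 were followed by THC2665334 at 2.61 and CES7 at 2.47, AK055214 took place 5 and AL080232 place 8, with THC2551927 at 2.32 and SSPN at 2.27 between them and FIGF at 2.24 after them. C1QTNF5 took place 168 in K422. Of all genes, 1.33% were called higher in DB and 2.34% in K422 (limma, Benjamini-Hochberg adjusted p under 0.05 and a log2 ratio of at least 0.5). By the same thresholds 4 of the 5 genes in DB and 5 of 5 in K422 were past the limits, which their selection had fixed.

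The ABC-DLBCL lines gave smaller ratios for the cDNA records and a different order of the genes. In HBL-1, AL080232, AK055214, TBC1D9 and C1QTNF5 were called higher, 4 of the 5 genes, against 5.73% of all genes. Of these, AL080232 and AK055214 lie at the same locus and are not independent, and TBC1D9 was detected in neither channel on any HBL-1 array. In OCI-Ly3, SLC1A1, TBC1D9 and C1QTNF5 were called higher, 3 of the 5 genes, against 2.80% of all genes. The median log2 ratio of the 5 genes was 0.63 in HBL-1 against 0.55 in OCI-Ly3, 1.61 in DB against 2.39 in K422, and 0 over all genes in each line. With normexp background correction in place of the scanner software's own, 0 of the 5 were called in either ABC-DLBCL line, with log2 ratios under loess from 0.09 to 0.33 in HBL-1 and from 0.33 to 0.49 in OCI-Ly3 for the genes just named.

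AL080232 in HBL-1 ranged from -0.48 to 1.80 with a median of 0.57, and its mean of 0.63 (SE 0.21) had a limma adjusted p of 0.031. It was detected in the siFOXP1 channel on 5 of 6 arrays and in the siCtrl channel on 2. This call was lost under 9 of 26 alternatives, among them the replicate number as a block (adjusted p = 0.0507), HBL-1 without replicate 1 (mean 0.51, adjusted p = 0.227) and HBL-1 without replicate 3 (mean 0.32, adjusted p = 0.423). In OCI-Ly3 its ratio was 1.00, 1.11 and -0.27 with siFOXP1 #1 and 0.54, 0.02 and 0.22 with siFOXP1 #2, a mean of 0.44 ± 0.55 (SD, n = 6 arrays, limma adjusted p = 0.185), and it was not called.

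By its brighter probe AK055214 was detected in both channels on every array, so the ratios of that probe do not touch the detection limit. In HBL-1 it was 0.34, 0.25 and 0.60 with siFOXP1 #1 and 0.65, 0.37 and 1.01 with siFOXP1 #2, a 1.45-fold rise (mean log2 0.54, SE 0.10, limma adjusted p = 0.000558) seen on 6 of 6 arrays. Without HBL-1 replicate 3 the mean was 0.40, below the limit of 0.5. In OCI-Ly3 its mean was 0.25 ± 0.22 (SD, n = 6 arrays, limma adjusted p = 0.114). The dimmer probe gave the opposite calls, with 0.31 in HBL-1, which was not called, and 0.64 in OCI-Ly3 (limma adjusted p = 0.00055), which was. Its siCtrl channel was detected on 5 of 6 arrays in HBL-1 and on 4 of 6 in OCI-Ly3. The 2 probes therefore differ on which ABC-DLBCL line passed the thresholds.

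SLC1A1 rose in OCI-Ly3, where its log2 ratio was 1.75, 1.12 and 1.45 with siFOXP1 #1 and 2.51, 2.80 and 2.39 with siFOXP1 #2. The mean was 2.00 (SE 0.26, limma adjusted p = 3.74e-05), and the arrays of the 2 siRNAs did not overlap. It was detected in the siFOXP1 channel on 4 of 6 arrays and in the siCtrl channel on 0. Its siFOXP1 mean was 1.22-fold the lowest signal that counts as detected. That mean of 4.48 lies below an undetected siCtrl signal of AL080232 in this line, 4.59, so no bound is given for SLC1A1 here. In HBL-1 neither channel was detected on any array, and the ratio ran from -0.76 to 1.80 with a mean of 0.40 ± 0.84 (SD, n = 6 arrays, limma adjusted p = 0.297). The ratio was lower in HBL-1 than in OCI-Ly3 by a log2 difference of -1.60 (SE 0.37, limma adjusted p = 0.00779).

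That SLC1A1 difference was the only one of the 5 to pass in the test of HBL-1 minus OCI-Ly3, a test that called 4.99% of all genes in either direction. HBL-1 and OCI-Ly3 shared no slide and no scan session, so the line and the batch cannot be told apart in it. The differences of the other genes were 0.19 for AL080232, 0.29 for AK055214, 0.35 for TBC1D9 and -0.54 for C1QTNF5, with limma adjusted p values between 0.24 and 0.773. Without HBL-1 replicate 2, TBC1D9 also passed, and with normexp background correction or a filter on dim probes over all arrays, which removes SLC1A1, 0 passed.

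TBC1D9 rose in OCI-Ly3 from a high starting level. Its log2 ratio there was 0.59, 0.83 and 0.72 with siFOXP1 #1 and 0.31, 0.33 and 0.53 with siFOXP1 #2, a 1.46-fold change (mean 0.55, SE 0.16, limma adjusted p = 0.0187) with both channels detected on 6 of 6 arrays. The call was lost without any one OCI-Ly3 replicate, with adjusted p values of 0.0653, 0.104 and 0.115 for replicates 1, 2 and 3, with the slide as a random block (0.052) and with siFOXP1 #2 alone (mean 0.39, adjusted p = 0.35). In HBL-1 the values were 0.91, 0 and 0 with siFOXP1 #1 and 2.00, 0.67 and 1.83 with siFOXP1 #2. The HBL-1 mean of 0.90 passed the thresholds (limma adjusted p = 0.000193), but as neither channel was detected on any of the 6 arrays it has no measured size.

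C1QTNF5 rose in both ABC-DLBCL lines. In HBL-1 the lowest, median and highest log2 ratios were 0.72, 1.49 and 1.71, with a mean of 1.29 (SE 0.21, limma adjusted p = 0.000106) and with detection on 4 of 6 arrays in the siFOXP1 channel and on 1 in the siCtrl channel. In OCI-Ly3 they were 1.14, 1.65 and 2.72, with a mean of 1.83 (SE 0.21, limma adjusted p = 1e-05) and with detection in 6 of 6 siFOXP1 and 3 of 6 siCtrl measurements. Each of these calls was lost under normexp background correction with either normalization, and under no other alternative among 26. Within single slides the means of the called genes ran from 0.50 to 1.46 in HBL-1 and from 0.45 to 2.13 in OCI-Ly3.

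**Figure D2:**
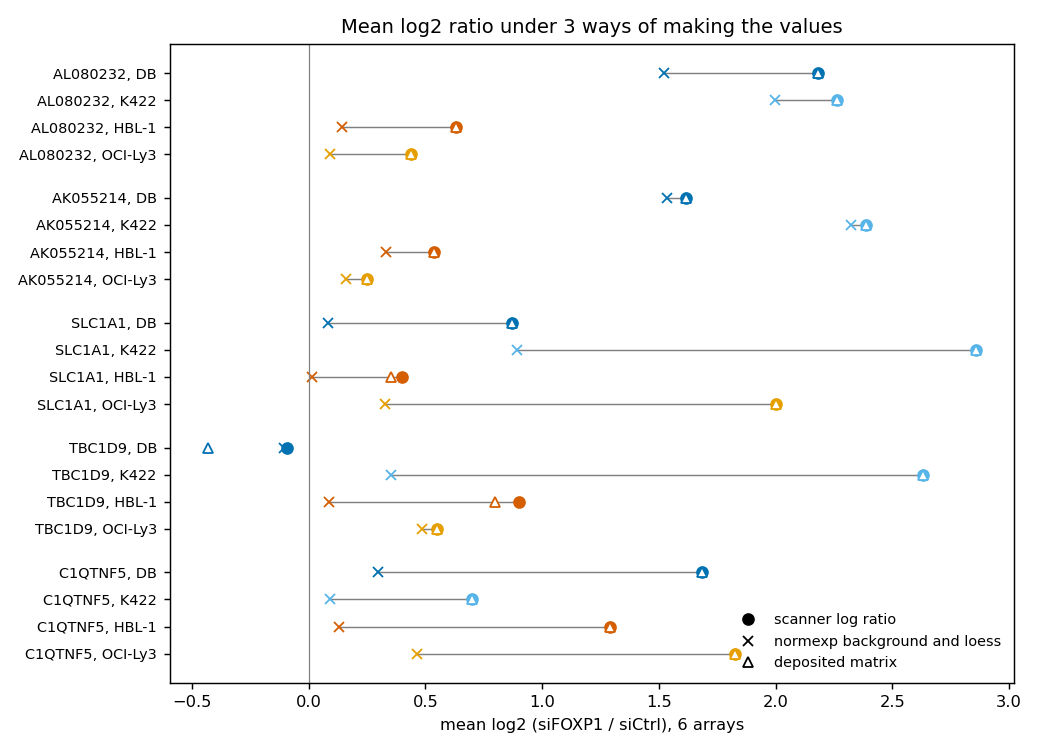
Mean log2 ratio of siFOXP1 over siCtrl over 6 arrays for each gene and line as given by the scanner software, with normexp and loess, and in the deposited matrix. AK055214 stays near 1.61 in DB and 2.39 in K422, while SLC1A1 in K422 falls from 2.86 to 0.89 and TBC1D9 in K422 from 2.63 to 0.35 under normexp with loess.

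Ratios of dim genes moved with the background correction in the GCB-DLBCL lines as well. Under normexp with an offset of 50 and loess, SLC1A1 in K422 was 0.89, TBC1D9 in K422 was 0.35, and C1QTNF5 was 0.30 in DB and 0.09 in K422. AL080232 in DB was 1.52. The TBC1D9 and C1QTNF5 values among these are smaller than the bounds given above for the same lines, so those bounds do not hold under this correction. Across all alternatives AK055214 stayed between 1.39 and 1.84 in DB and between 2.16 and 2.48 in K422.

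None of the 5 genes passed the test of siFOXP1 #2 against #1 in HBL-1, where 0.179% of all genes passed, or in OCI-Ly3, where 0.192% did (limma, in either direction). At an unadjusted p under 0.05, TBC1D9 in HBL-1 and SLC1A1 in OCI-Ly3 differed, 2 of 10 contrasts. For TBC1D9 in HBL-1, which was detected in neither channel, the adjusted p was 0.19, and 0.0487 with the replicate number as a block, and the difference has no measured size. Of the 12 same-numbered pairs of arrays over the 4 lines, siFOXP1 #2 gave the higher ratio in 11 for AK055214, 9 for AL080232, 8 for SLC1A1, 5 for C1QTNF5 and 3 for TBC1D9.

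Control signal, which is compared here for 1 probe across lines and not between genes, was higher in both GCB-DLBCL lines than in both ABC-DLBCL lines for the cDNA records. The log2 signal of AL080232 with siCtrl was 9.11 ± 0.57 in K422, 7.36 ± 0.47 in DB, 4.73 ± 0.28 in OCI-Ly3 and 3.90 ± 0.40 in HBL-1 (SD, n = 6 arrays each), and no neighbouring lines in this order overlapped, though OCI-Ly3 was detected on 4 arrays and HBL-1 on 2. For AK055214 it was 10.42 ± 0.19 in K422, 9.95 ± 0.06 in DB, 6.75 ± 0.12 in HBL-1 with 6.54 ± 0.14 for OCI-Ly3, and the last pair overlapped. Both GCB-DLBCL lines, which were scanned in different sessions, thus had the higher control signal and the higher ratio for AL080232 and AK055214. Control values followed the replicate number. For AL080232 in K422, arrays of siFOXP1 #1 and #2 had 9.63 and 9.70, 8.39 and 8.44, and 9.26 and 9.25 in replicates 1, 2 and 3. Whether same-numbered arrays share a control culture is not given, so the 6 siCtrl values of a line may be fewer independent controls.

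Among the protein-coding genes, TBC1D9 had another order of the lines, and the orders of SLC1A1 and C1QTNF5 were not resolved. TBC1D9 had a siCtrl signal of 10.90 ± 0.05 in OCI-Ly3 (SD, n = 6 arrays), where it was detected on all arrays, against 2.14 in DB, 2.08 in K422 and 1.86 in HBL-1, where it was on none. The lowest signals that counted as detected lay between 3.50 and 4.84 in this channel. SLC1A1 had siCtrl means of 3.84 in K422, 3.20 in DB, 2.48 in OCI-Ly3 and 2.13 in HBL-1, each overlapping the next. It was detected in this channel on 2 arrays of K422 and on none of the other lines. C1QTNF5 had 4.07 in OCI-Ly3, 4.01 in DB, 3.55 in K422 and 2.72 in HBL-1, again each overlapping the next. Its siCtrl signal was detected on 3 arrays of OCI-Ly3, 1 of HBL-1 and none of DB or K422.

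**Figure D3:**
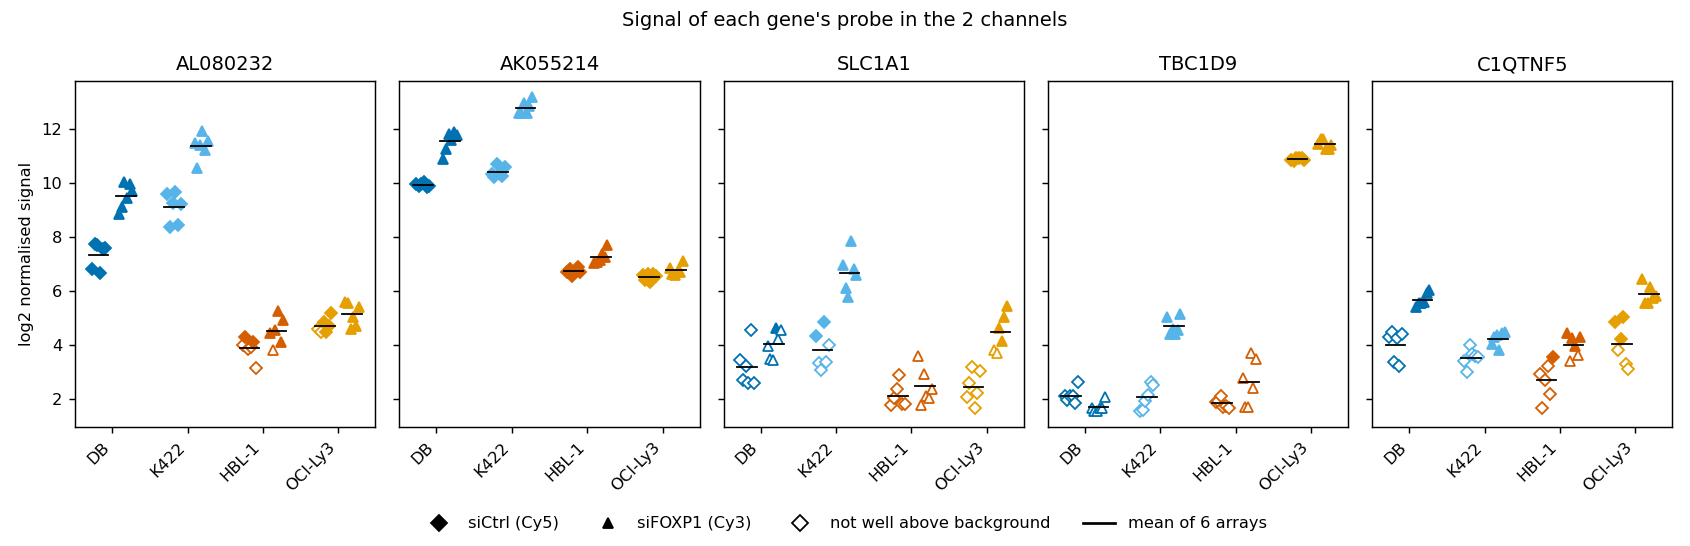
Log2 normalized signal of each gene in the siCtrl and siFOXP1 channels on each array, by cell line, with open symbols for measurements that were not detected. AL080232 and AK055214 are brightest in K422 and next in DB, and TBC1D9 is detected in the siCtrl channel in OCI-Ly3 alone.

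Most probes between the cDNA records were higher too in the GCB-DLBCL lines. From AL080232 to the last AK055214 probe the array has 13 probes over 642.961 kb, 2 of them on the minus strand, and 10 of these probes belong to other names. Of those 10, a mean log2 ratio of at least 0.5 was found for 8 in DB and 10 in K422, with medians of 1.33 and 2.04. The ABC-DLBCL lines had 1 in HBL-1, with a median of 0.22, and 2 in OCI-Ly3, with a median of 0.04. In DB and in K422, 8 of the 10 were detected in the siFOXP1 channel on all 6 arrays. Over the 43 genes with a probe within 250 kb of any of the 5 genes, 8 were called higher in DB, where 1.33% of all genes were, and 10 in K422, where 2.34% were, and of these 7 and 9 were among the 13 around the cDNA records. DB and K422 are the contrasts that chose the members, and probes in 1 transcribed region are not independent, so these counts are descriptions. In HBL-1 and OCI-Ly3, which the choice did not use, 2 of the 13 were called higher in each, against 5.73% and 2.80% of all genes, and 2 were called lower in HBL-1, against 4.18%.

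LPP itself was represented by 2 probes 10.851 kb and more before the first AK055214 probe. The brighter one, at chr3:190074950-190075009, had mean log2 ratios of 1.37 ± 0.41 in DB and 2.07 ± 0.13 in K422, against 0.54 ± 0.25 in OCI-Ly3 and 0.24 ± 0.21 in HBL-1 (SD, n = 6 arrays). LPP was called in OCI-Ly3 (limma adjusted p = 0.000477) and not in HBL-1 (0.063). The other LPP probe gave 1.55, 2.19, 0.40 and 0.34 in the same order of lines.

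The transcripts without a gene symbol in the region differed in their ratios. BU726029, 20.963 kb after AL080232, had 1.52 in DB and 2.00 in K422, against 0.09 in OCI-Ly3 and 0.35 for HBL-1. AK123506, between LPP and AK055214, had 1.43 and 2.09, against -0.07 and 0.20. THC2551927 had 1.24 and 2.32, and BG502322 had 1.06 and 2.14, while it was called lower in HBL-1 at -0.65. A_32_P179646, a probe without any other name in the middle of the region, had 1.29 in DB, 2.01 in K422 and 0.74 in OCI-Ly3, where it was called. THC2535753, on the minus strand, was called higher in HBL-1, with a mean of 1.66 and a change of at least 2.01-fold, besides 1.59 in DB and 1.28 in K422. The lowest of the region were A_24_P928804, with 0.34 in DB and 1.07 in K422, and A_24_P916515, with 0 and 1.06. Neither was detected in either channel on a DB array. In K422 A_24_P928804 was detected in 2 siFOXP1 and 1 siCtrl measurements, and A_24_P916515 in 1 and 0.

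Within 250 kb on either side of the region the ratios of both GCB-DLBCL lines lay between -0.40 and 0.13. Of these flank probes, FLJ42393 and BG618521 were detected in neither channel on any DB or K422 array, so their ratios there have no measured size. THC2491622 and A_24_P50294 were detected in both channels on all of these arrays. FLJ42393, 66.553 kb before AL080232, had -0.40 in DB and -0.13 in K422, and was called in HBL-1 at 0.61 with detection on 2 of 6 siFOXP1 measurements. THC2491622, which lies closer, had 0.08 and -0.34. BG618521 and A_24_P50294, after AK055214, had -0.01 and -0.15 in DB and 0.13 and -0.17 in K422, and A_24_P50294 was called lower in HBL-1 at -0.51. BCL6, the next protein-coding gene before LPP and a repressor central to germinal center B cells, had -0.02 in DB, 0.10 in K422, 0.31 in OCI-Ly3 and, highest, 0.44 in HBL-1, and was called in no line. TPRG1, the next after LPP and 430.731 kb beyond AK055214, had 0 in DB, where siCtrl was detected on 0 arrays. In K422 it had 1.82 ± 0.91 (SD, n = 6 arrays) and was called higher with siCtrl detected on 2 arrays. From the first to the last probe with a mean of at least 0.5 in both DB and K422, 11 of the 17 probes in the window, the distance was 642.961 kb.

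**Figure D4:**
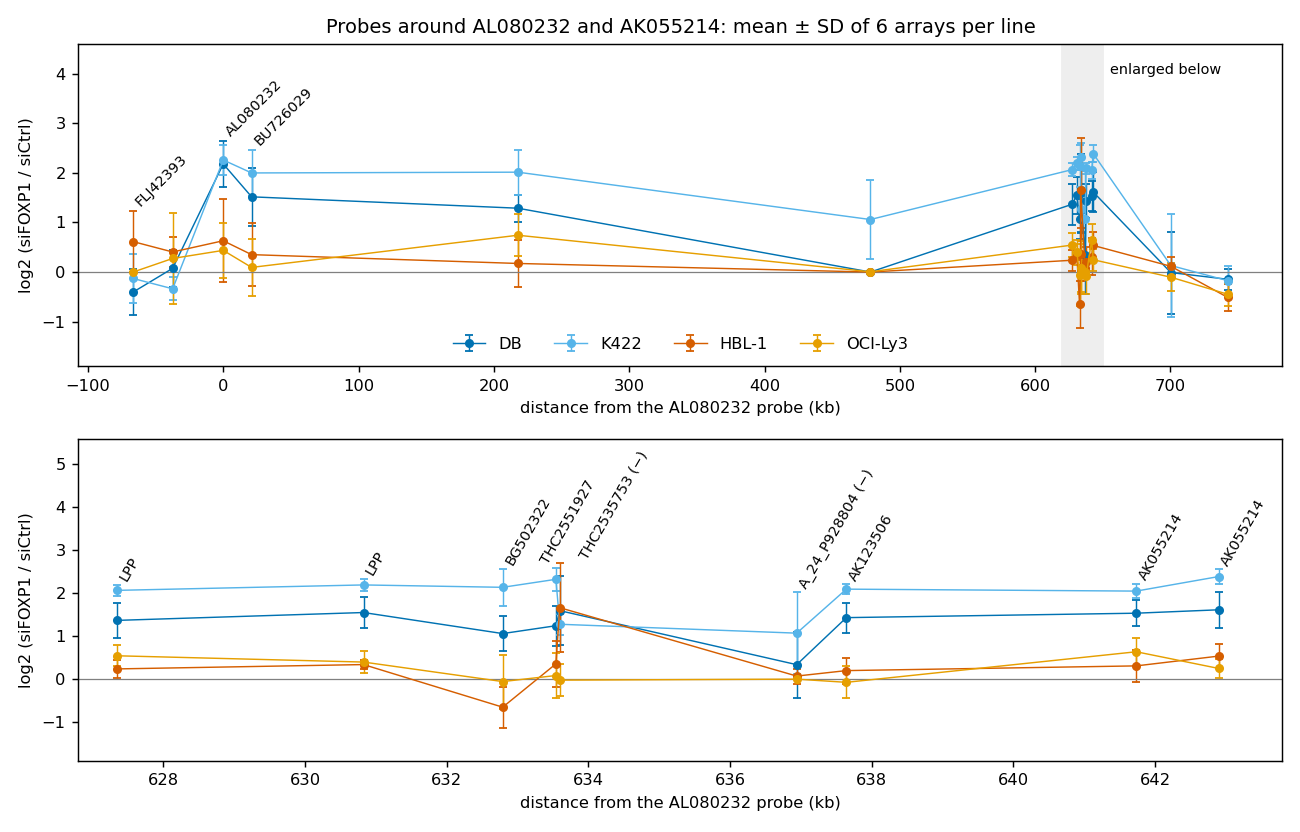
Mean log2 ratio of siFOXP1 over siCtrl for the probes around AL080232 and AK055214 by line, with error bars of 1 SD over 6 arrays, against distance in kb from the AL080232 probe, with lines that join neighbouring probes and the stretch around AK055214 enlarged. Most probes between the cDNA records are high in DB and K422, and those on either flank lie between -0.40 and 0.13 in both. Of the flank probes, FLJ42393 and BG618521 were not detected on any array of these lines.

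RefSeq has 7 promoter windows for LPP, 1 for SLC1A1 and 1 for C1QTNF5, each of 250 bases before and 50 after a start, on the genome GRCh38.p14, and the C1QTNF5 window is the one also listed for MFRP. AL080232, AK055214 and TBC1D9 have no window in the table used. The forkhead sequence TGTTTAC was searched on both strands and is in 1 of the 7 LPP windows, in 0 of the SLC1A1 and C1QTNF5 windows and in 3.42% of all 35116 windows. The variant TGTTTAT is in none of the 9 windows and in 4.24% of all. These are matches of letters and say nothing about binding. The bases before the LPP start with the match are shown because LPP is the protein-coding gene at the locus of the cDNA records, with TGTTTAC in capitals, at chr3:188212462-188212711 on the plus strand of GRCh38.p14.
LPP: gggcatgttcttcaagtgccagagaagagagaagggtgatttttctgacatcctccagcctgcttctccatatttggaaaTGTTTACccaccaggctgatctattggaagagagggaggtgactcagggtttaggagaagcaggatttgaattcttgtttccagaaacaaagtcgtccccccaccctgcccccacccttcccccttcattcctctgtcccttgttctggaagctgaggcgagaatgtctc

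Around the 3 protein-coding genes, CLGN was the only neighbour of TBC1D9 called higher, in DB, K422 and HBL-1. That is 1 of 7 in each of these lines, beside 1.33%, 2.34% and 5.73% of all genes. CLGN, which encodes calmegin, a chaperone of the endoplasmic reticulum, lies 232107 bases from TBC1D9 and was above 0 on 6 of 6 arrays in each line, with means of 1.33 ± 1.59 in DB, 1.08 ± 0.17 in K422, 0.20 in OCI-Ly3 and 1.14 ± 0.83 in HBL-1 (SD, n = 6 arrays), the last with siCtrl detected on 0 arrays. Of the 7 neighbours of TBC1D9, SCOC fell in HBL-1, by 0.55 on the log2 scale. MFRP, whose RefSeq window is that of C1QTNF5, had -0.05 in DB, 0.00 in K422, -0.02 in OCI-Ly3 and, lowest, -0.19 in HBL-1. Next to SLC1A1, THC2631989 fell in HBL-1, by 0.74, and in OCI-Ly3, by 0.53, and THC2748306 was called there at 0.79 with detection on 1 array. Of the 16 neighbours of C1QTNF5, MCAM, an adhesion molecule, fell in HBL-1, by 0.74. In any line 0 of the 16 were called higher, beside 1.33% (DB) to 5.73% (HBL-1) of all genes. Among all 43 neighbours 5 were called lower in HBL-1, where 4.18% of all genes were, and 1 in OCI-Ly3, where 1.62% were. In DB 0 and in K422 1 were called lower, MCAM at -0.51, beside 0.843% and 2.10% of all genes.

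Of 26 other genes of glutamate and cysteine transport and metabolism, 0 were called higher in any line and 0 lower in DB or K422. Of all genes, 1.33% (DB) to 5.73% (HBL-1) were called higher, and 0.843% (DB) and 2.10% (K422) lower. At such shares few or no calls are due among 26 genes, so the zeros do not set this list apart. In HBL-1 2 of the 26 were called lower, beside 4.18% of all genes, and in OCI-Ly3 4 were, beside 1.62%. The list medians in these lines were -0.06 and -0.07. In OCI-Ly3 SLC7A11, the cystine importer, fell by 1.21 on the log2 scale, ASNS, asparagine synthetase, by 0.76 and GOT1, the cytosolic aspartate aminotransferase, by 0.53. SLC1A3, another glutamate transporter, was called at -0.68 with neither channel detected. In HBL-1 ASNS fell by 0.71 and ARL6IP5, whose product binds EAAT3, by 0.53. At an unadjusted limma p under 0.05 there were 5 of the 26 in DB and 5 in K422, which is 19.2% in each, beside 23.6% and 30% of all genes. There were 8 in HBL-1, or 30.8%, and 12 in OCI-Ly3, or 46.2%, beside 38.4% and 29.2%. In DB 20 of the 26 were detected in a channel on at least 3 arrays, beside 17368 of all 30142 genes, so these shares are not a like comparison.

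Of 42 other genes with a TBC domain, 6 were called higher in HBL-1, 3 in OCI-Ly3, 2 in K422 and 0 in DB, beside 5.73%, 2.80%, 2.34% and 1.33% of all genes, and 1 was called lower, WDR67 in HBL-1 at -0.51. EVI5L was called in 3 lines, with 0.82 in HBL-1, 0.52 in OCI-Ly3 and 0.58 in K422. TBC1D26 rose by 1.18 and SGSM3 by 0.63 in HBL-1, and TBC1D4, a Rab GTPase-activating protein known from insulin signalling, rose by 0.65 in OCI-Ly3. The list medians were 0.06 in DB, 0.09 in K422 and OCI-Ly3 and 0.10 in HBL-1. In DB 17 of the 42, or 40.5%, had an unadjusted limma p under 0.05, beside 23.6% of all genes.

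Of 27 genes related to C1QTNF5, those with a C1q domain and MFRP, which shares its window and is also counted among the neighbours, 2 were called higher in HBL-1, where 1 was called lower, 1 was called higher in OCI-Ly3, and 1 was called lower in K422. Of all genes 5.73% were called higher and 4.18% lower in HBL-1, 2.80% higher in OCI-Ly3 and 2.10% lower in K422. CBLN3, a cerebellin, was at least 1.30-fold higher in HBL-1, and COL8A2, a collagen chain, was at -1.04 there. COL10A1, another collagen chain, was at 0.79 in OCI-Ly3 with siCtrl detected on 0 arrays, and EMILIN2 was at -0.61 in K422. C1QTNF4 had 0.85 in HBL-1 (limma adjusted p = 0.0496) from dim signal. In DB 0 were called, and 1 of the 27, or 3.7%, had an unadjusted limma p under 0.05, beside 23.6% of all genes. Only 8 of the 27 were detected in a channel on at least 3 of the 6 DB arrays, beside 17368 of all 30142 genes. The 2 shares are therefore not a like comparison.

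Across the 24 arrays the ratios of AL080232 and AK055214 had a Pearson correlation of 0.87, and those of the other pairs among the 5 genes ran from -0.65 for TBC1D9 and C1QTNF5 to 0.51 for AK055214 and TBC1D9. The arrays fall into 4 lines, so these values include differences between lines. As deviations from line means, the correlation of AL080232 and AK055214 was 0.59. Among the other genes, 17979 or 17980 of which were compared, the ratios most like those of AL080232 were of AK055214 (0.87), ENST00000313688 (0.84) and BU726029 (0.83). For AK055214 they were AK123506 (0.95), LPP (0.93) and THC2551927 (0.91), each at the same locus. SLC1A1 was most like ZNF141 (0.81), C7orf28A (0.79) and AGPAT9 (0.79), TBC1D9 most like SLC41A1, SERPINB9 and ELMO1 (each 0.89), and C1QTNF5 most like LOC376693 (0.85), ZCCHC17 (0.79) and SLC9A9 (0.76). As deviations from line means, the correlations of these closest genes ran from 0.23 (SLC1A1 with AGPAT9) to 0.76 (C1QTNF5 with LOC376693). A high correlation here did not mean a rise. Of these genes away from the LPP locus, only SLC41A1, SERPINB9 and ELMO1 reached a mean log2 ratio of 0.5 in a line. Their means in K422 were 1.85, 1.69 and 0.58. ENST00000313688 was below 0 in every line, from -0.60 to -0.06.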

How the data were processed

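The authors hybridised siFOXP1 (Cy3) and siCtrl (Cy5) RNA to 2-colour Agilent arrays and deposited Feature Extraction output (10.5.1.1 for DB and OCI-Ly3, 10.7.3.1 for K422 and HBL-1, per the file headers) with a background-subtracted, dye-normalized intensity for each channel, flags and, as log10, the ratio of Cy5 to Cy3. They also deposited a matrix that ran with the log2 ratio of Cy3 over Cy5 (correlation per array 0.804 to 0.998). Each array had 45015 spots. After 1639 control spots and 113 to 469 outlier spots were left out, ratios were turned to log2(siFOXP1/siCtrl) and spots of a probe averaged, and the brightest probe of a name stood for the gene. Between 57.3% and 64.5% of probes were well above background in a channel, and the number of arrays limits precision. A ratio of exactly 0, found in 23.6% of values, always had neither channel well above background. Signals were scaled between arrays (Aquantile) for levels and bounds.

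A mean per line and siRNA was fitted over all 24 arrays in limma 3.58.1 (R 4.3.3), with Benjamini-Hochberg adjustment over all genes. Arrays were taken as independent in this fit, though same-numbered arrays of a line may share a control. The fit was tested on simulated data. One B-cell marker is not reported here. The members and the gene lists were chosen with earlier results of these data known. Beside the members, named genes are FOXP1, neighbours within 250 kb that were called or adjoin the cDNA records, up to 4 called genes per list and line, the 3 closest correlations per member and the genes ranked next to the members. Alternatives were normexp (offset 50) with loess or median centring, the deposited matrix, outlier spots kept, the mean over probes, every probe, filters on dim probes (on at least 12 arrays, or on 3 of a line, the latter chosen after seeing the data), replicate or slide as a block, each line alone, the methods' t-test, each siRNA alone and leaving out each replicate.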

Additional observations from a re-analysis of the deposited data

Results flagged for a closer look

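TBC1D9 in DB had a log2 ratio of -0.55 with siFOXP1 #2 in replicate 3, while the other 5 arrays of the line were listed at 0, so this array lies apart from the rest. Neither channel was detected, that is well above background, on a DB array. It was 1 of 20 combinations of gene and line examined. Since the other 5 values are exact zeros given to undetected spots, any other value would stand apart, and the chance rate of about 1 in 20 groups for measured values does not apply.

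SLC1A1 had a lower ratio in HBL-1 than in OCI-Ly3, by a log2 difference of -1.60 (SE 0.37, limma adjusted p = 0.00779). The adjusted p was 0.0328 with the replicate number as a block and 0.0468 with the slide as a random block. In HBL-1 neither channel was detected on an array, and in OCI-Ly3 the siCtrl channel was on 0 of 6.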

How the results depend on the processing

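No log2 ratio of the 5 genes in HBL-1 or OCI-Ly3 changed sign under the alternatives run. Normexp background correction moved most, and fewer of all genes were called higher in each line under it. With loess, 0 of the 5 genes were called in HBL-1 or OCI-Ly3, 0 differed between these lines, and the median ratio of the 5 was 0.30 in DB, 0.89 in K422 and 0.13 in HBL-1. Called list genes then numbered 1 in DB, 1 in K422 and 4 in HBL-1 (0, 3 and 12 before), and called neighbours 0 in OCI-Ly3, 1 in HBL-1 and 5 in DB (4, 8 and 8 before). With median centring the counts of the 5 genes were also 0, 0 and 0, the medians were 0.31, 0.90 and 0.18, list genes numbered 1 in K422 and 2 in OCI-Ly3 (8 before), and neighbours 0 in OCI-Ly3, 3 in HBL-1 and 4 in DB. List genes in DB numbered 3 with the deposited matrix, 1 with the mean over probes and 5 with every probe, which gave 6 in K422. The mean over probes gave 5 list genes in OCI-Ly3 and a median of 2.22 in K422. The filter on dim probes over all arrays left 0 of the 5 genes differing between HBL-1 and OCI-Ly3, since SLC1A1 was removed. Each line alone left 2 of the 5 called in HBL-1 and 2 neighbours in OCI-Ly3. The methods' t-test with adjustment left 2 of the 5 in HBL-1, 2 neighbours in DB and 5 in HBL-1, and 1 list gene in K422 and 5 in OCI-Ly3. With siFOXP1 #1 alone, 1 of the 5 was called in HBL-1, with 4 list genes in DB and 6 in HBL-1, and 1 neighbour in OCI-Ly3 and 3 in HBL-1. With siFOXP1 #2 alone there were 3 list genes and 2 neighbours in OCI-Ly3. The filter on dim probes within a line left 3 of the 5 in HBL-1, without TBC1D9, and 3 in OCI-Ly3. The causes of these shifts were not tested.

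Leaving out 1 replicate at a time, the number of the 5 genes called ran from 2 to 4 in HBL-1 and from 2 to 3 in OCI-Ly3, and 1 to 2 differed between these lines and 0 between siRNAs. HBL-1 without replicate 3 left TBC1D9 and C1QTNF5. The median of the 5 ran from 1.48 to 1.79 in DB, 2.34 to 2.45 in K422, 0.40 to 1.06 in HBL-1 and 0.54 to 0.67 in OCI-Ly3. Called list genes ran from 0 to 4, 2 to 4, 7 to 13 and 6 to 9, and called neighbours from 8 to 9, 8 to 11, 4 to 8 and 2 to 5, in the same order.

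Same-numbered arrays of a line correlated in their deviations by 0.0469 to 0.284, and 12 of 12 pairs were closest by their own number, a hint from the data, since the labels give only numbers. With the replicate number as a block, 1 of the 5 genes differed between siRNAs (TBC1D9 in HBL-1), AL080232 in HBL-1 was lost (adjusted p = 0.0507), and no other count of the 5 genes changed by over 1.5 times. The median of all genes moved by at most -0.11, with the deposited matrix in HBL-1.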
